A study of Homo sapiens with 12 samples.

Results

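The mRNAs of 10 chaperone genes were followed through the ribosome gradients of MCF10A cells with and without CBFB. They are the cytosolic Hsp70 genes HSPA1A, HSPA1B and HSPA8, the Hsp40 co-chaperone DNAJB1, the cytosolic Hsp90 genes HSP90AA1 and HSP90AB1, the endoplasmic reticulum chaperones HSPA5 (BiP) and HSP90B1 (GRP94), and the mitochondrial chaperonins HSPD1 (Hsp60) and HSPE1 (Hsp10). They were taken by name from the 56632 Ensembl genes of each deposited table. All 10 were found, and all 10 passed the filter on low counts that left 16275 genes for testing. Lysates of WT MCF10A, a non-tumorigenic human mammary epithelial line, and of CBFB_KO cells were spun through sucrose gradients of 10 to 50%. CBFB_KO cells are the same line after CRISPR-Cas9 deletion of CBFB, a gene for the partner subunit of RUNX transcription factors that also has a role in translation, and single-cell colonies were picked to obtain them. All cells of both genotypes were below passage 20 and had received 100 µg/ml cycloheximide for 30 min, which holds ribosomes on the mRNA. RNA of the free fraction, which lacks whole ribosomes, the monoribosomal fraction (mono) and the pooled polyribosomal fraction (poly) was sequenced in 2 libraries per genotype and fraction, which makes 6 conditions and 12 libraries.

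Chaperones bind unfolded proteins and help them to fold. Hsp70 proteins such as HSPA8 and HSPA1A hold short hydrophobic stretches and release them with ATP, and DNAJB1 delivers clients and starts the ATP hydrolysis. Hsp90 proteins take over clients such as kinases and steroid receptors at a later step. HSPA5 and HSP90B1 do the corresponding work in the lumen of the endoplasmic reticulum and are induced when unfolded proteins gather there. HSPD1 forms a barrel in the mitochondrial matrix for which HSPE1 is the lid. HSPA8 and HSP90AB1 are made at all times in most cells, whereas HSPA1A, HSPA1B and DNAJB1 are classical targets of the heat shock factor HSF1. Some chaperone mRNAs, HSPA5 and HSPA1A among them, can be translated under stress when most mRNAs are not. The gradients ask where each mRNA sits with respect to ribosomes, and whether this position differed without CBFB.

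The libraries held between 41050325 and 63886726 expected counts. The share from the mitochondrial genome was 71.56% and 87.22% in the CBFB_KO free libraries, 11.1% and 20.81% in the WT free libraries and at most 8.08% in the others, which left 13568143 and 5247878 counts outside that genome there and at least 43279862 in each of the remaining 10. The CBFB_KO poly libraries were nearly the same as each other, with a mean chi-square of 2.22 per gene against 123 or more for the pairs of the other conditions. Over the 10 chaperone mRNAs they differed by between -0.03 and 0.04 on the log2 scale, so that their SD understates the spread seen elsewhere. CBFB mRNA was at 11.3 and 14.1 TMM-normalized CPM (counts scaled to the size of the library) in the CBFB_KO free libraries, 4.79 and 3.89 in mono and 3.59 and 4.01 in poly, against 5.37 and 12.6, 8.03 and 6.2, and 5.72 and 6.84 in WT. A Cas9 deletion can leave mRNA behind, and the level does not check the labels. The epithelial markers KRT5, KRT17 and ITGB4 were found in all 12 libraries, while the leukocyte marker PTPRC, the fibroblast marker COL1A2 and the liver marker ALB were at 0 in all 12. KRT14, TP63 and EGFR fell as low as 0.09, 0.14 and 0.21 TPM in single libraries, and of the markers of other cells COL1A1 reached 2.01 TPM at most.

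HSPA1A and HSPA1B are near-identical neighbours on chromosome 6. Their coding sequences in GENCODE release 29 are both 1926 bases long, differ at 4 bases (99.8% identity) and share an unbroken stretch of 1709 bases. The 120 coding bases with most of the differences, coding positions 1801 to 1920, are printed because they show how little separates coding reads of the copies. Capitals mark the 3 bases that differ.
HSPA1A: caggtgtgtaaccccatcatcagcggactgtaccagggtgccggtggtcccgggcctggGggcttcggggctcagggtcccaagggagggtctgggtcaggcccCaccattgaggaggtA
HSPA1B: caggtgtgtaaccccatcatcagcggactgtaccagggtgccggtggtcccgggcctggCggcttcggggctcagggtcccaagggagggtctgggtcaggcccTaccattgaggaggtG
RSEM splits reads of such copies by estimation, and the split between them is uncertain. The TPM ratio of HSPA1A to HSPA1B lay between 0.568 and 1.57 over the 12 libraries. The other members also have pseudogene rows in the tables, up to 23 for HSPE1, but the counts on these rows were at most 0.37% of a member's own in any library.

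In WT, chaperone mRNAs were enriched on polyribosomes. Of the 10, 9 were higher in poly than in free (adjusted p from edgeR's quasi-likelihood test under 0.05), none was lower, and DNAJB1 did not pass in edgeR. Among all genes tested, 14% were called higher in this comparison. The median log2 change of the 10 was 2.64, against 0.08 over all genes. Across all genes this change also moved with gene length. Its median was -0.40 for effective lengths under 1000 bases, -0.17 for 1000 to 2000, 0.48 for 2000 to 4000 and 1.14 for longer genes. An offset for gene length moved HSPA5 from 4.75 to 3.78 and HSP90AA1 from 2.65 to 1.94, but HSPE1 up from 1.48 to 1.72. All 9 calls were kept, beside 1997 of 16275 genes. The part of gene length was not tested. With all libraries, the endoplasmic reticulum chaperones showed the largest differences. HSPA5 was at 5.19 and 6.74 TMM-normalized CPM in WT free, at 6.61 and 12.8 in WT mono, and at 69.4 and 253 in WT poly. Both poly libraries lay far above the other 4, although they differed from each other. The log2 change from free to poly was 4.75 (SE 0.70, adjusted p = 0.002), or 27.0-fold. Without only the poly library of WT replicate 2 it was 3.55 (adjusted p = 0.016). HSP90B1 was at 5.11 and 3.32 CPM in WT free, at 4.31 and 9.18 in mono, and at 23.5 and 126 in poly, a log2 change of 4.15 from free to poly (SE 0.78, adjusted p = 0.0047), and of 2.50 without only that poly library (adjusted p = 0.044) and 2.27 without WT replicate 2 (adjusted p = 0.059). For both genes WT poly replicate 2 was the highest of all 12 libraries. Without WT replicate 2, HSPA5 was still the largest at 3.81. HSP90B1 then lay below HSPA1B (3.18), HSPA1A (2.69) and HSP90AB1 (2.30).

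The cytosolic chaperones followed with smaller differences when all libraries were used. HSP90AB1, the Hsp90 made at all times, was at 112 and 123 TMM-normalized CPM in WT free and at 527 and 1231 in WT poly, and HSP90AA1, the inducible Hsp90, was at 28.1 and 24.5 in free and at 77.3 and 254 in poly. Free and poly did not overlap for either gene, with log2 changes of 2.90 (SE 0.45, adjusted p = 0.0023) and 2.65 (SE 0.56, adjusted p = 0.0081). HSPA8 was at 287 and 265 CPM in WT free and at 675 and 957 in WT poly, which is 2.95-fold higher (log2 1.56, SE 0.36, adjusted p = 0.012). HSPA1A was at 8.22 and 16.2 in WT free and at 50.7 and 99.7 in WT poly, and HSPA1B at 7.05 and 22.6 against 61.0 and 73.9. Their log2 changes were 2.62 (adjusted p = 0.0093) and 2.19 (adjusted p = 0.015). DNAJB1 went the other way without passing the edgeR test. It was at 296 and 409 CPM in WT free, 160 and 91.1 in mono, and 153 and 141 in poly, with both free libraries above the other 4 and a log2 change of -1.26 from free to poly (95% interval -2.66 to 0.13, adjusted p = 0.17). DESeq2 called it lower (-1.39, adjusted p = 0.048).

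The mitochondrial pair was split. HSPD1 was at 17.6 and 14.2 TMM-normalized CPM in WT free, at 15.0 and 22.9 in mono and at 71.9 and 168 in poly, a log2 change of 2.91 from free to poly (SE 0.50, adjusted p = 0.0035). Its free and mono libraries overlapped and both poly libraries lay above them. HSPE1, which has a far shorter mRNA (mean effective length 496 bases against 2091 for HSPD1), was at 89.3 and 136 CPM in WT free, at 452 and 616 in mono and at 338 and 291 in poly. Both mono libraries were the highest, and its log2 change from free to poly was 1.48 (SE 0.45, adjusted p = 0.038). HSPE1 kept its call in 11 of 17 alternative fits, the fewest of the 9. Several of the 9 lost their call when WT replicate 1, WT replicate 2 or only its poly library was left out. Such fits hold 1 library in a condition. Without WT replicate 2, HSPA1A, HSPA1B and HSPE1 rose to 2.69, 3.18 and 1.98. The others of the 9 fell, HSP90AA1 to 1.53 and HSPD1 to 2.10. None of the 9 changed direction in any alternative.

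**Figure D1:**
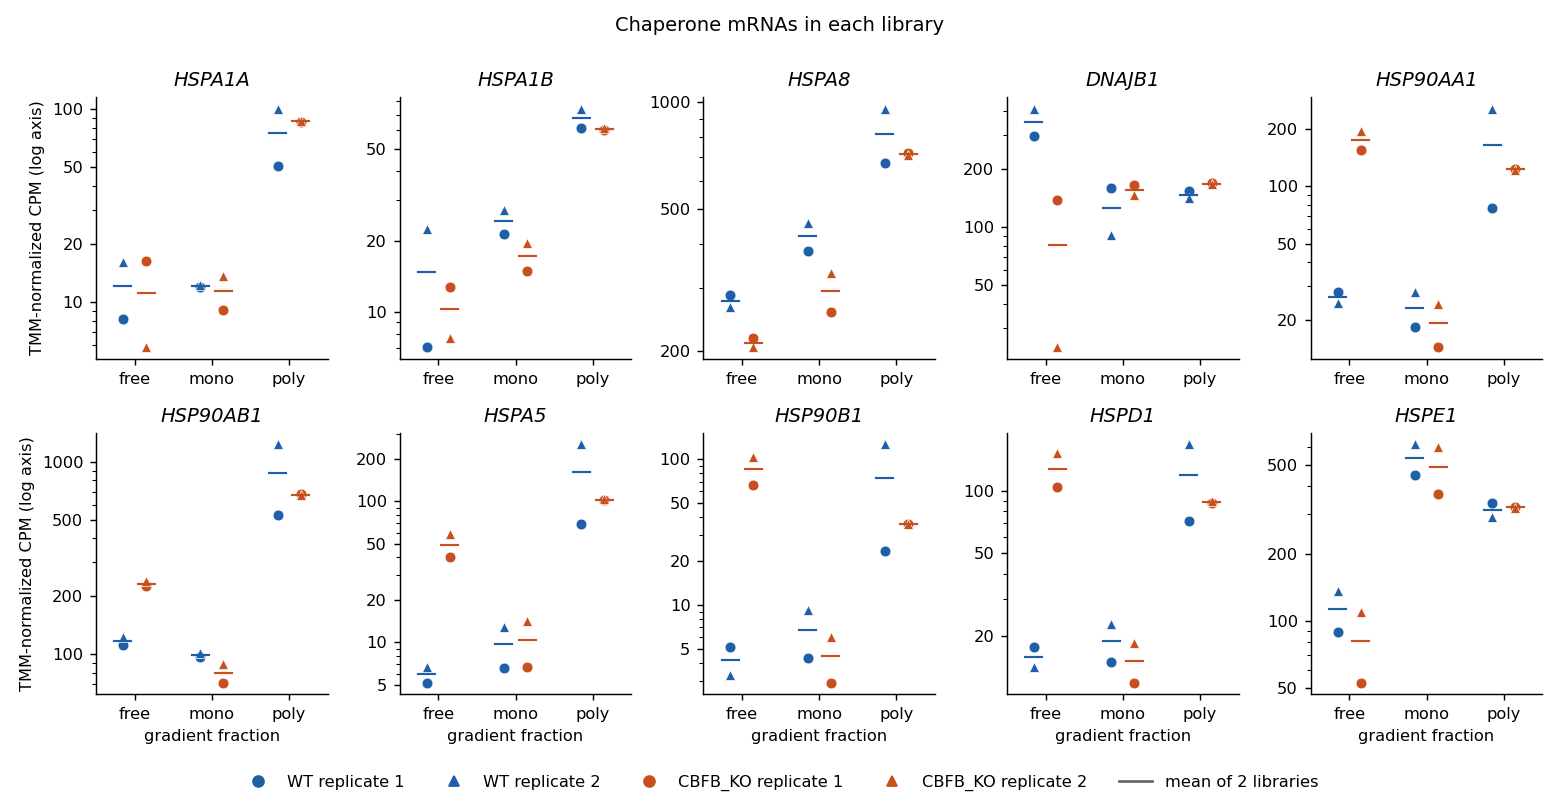
TMM-normalized CPM (log axis) of each chaperone mRNA in the free, mono and poly fractions. Circles are replicate 1, triangles replicate 2, blue WT and orange CBFB_KO, and short lines are means of 2 libraries. HSPA5, HSP90B1, HSP90AA1 and HSPD1 of CBFB_KO free lie far above WT free, while in mono and poly none of the 10 was called different between genotypes.

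In CBFB_KO, 5 of the 10 mRNAs were higher in poly than in free, beside 14.6% of all genes. The median log2 change was 1.30, against -0.12 over all genes. HSPA1A (log2 2.94, SE 0.58, adjusted p = 0.0036), HSPA1B (2.56, SE 0.54, adjusted p = 0.0051), HSPA8 (1.76, SE 0.36, adjusted p = 0.0043), HSPE1 (1.99, SE 0.46, adjusted p = 0.0082) and HSP90AB1 (1.54, SE 0.42, adjusted p = 0.019) were called. HSP90AA1, HSP90B1, HSPD1, HSPA5 and DNAJB1 were not. Their log2 changes were -0.51, -1.24, -0.53, 1.07 and 1.06, with adjusted p between 0.19 and 0.48. With an offset for gene length, HSPA5 was called (2.04, adjusted p = 0.015) and HSPE1 was not (1.19, adjusted p = 0.061). The count therefore stayed at 5 with other members, beside 2884 of 16275 genes called higher. HSPD1, for instance, was at 105 and 152 TMM-normalized CPM in CBFB_KO free and at 87.8 and 90.0 in CBFB_KO poly. HSP90B1 was at 66.3 and 104 in free and 35.8 and 36.0 in poly. For both genes the free libraries of CBFB_KO were above its poly libraries, the opposite order to WT. Without CBFB_KO replicate 2, which leaves 1 library in each CBFB_KO condition, the calls were lost for all but HSPE1. HSPA1A, HSPA1B, HSPA8, HSP90AB1 and HSPE1 were then at 2.4, 2.24, 1.75, 1.6 and 2.63. Far fewer of all genes were called higher in that fit too. When libraries were scaled by their total counts alone, 9 members were called higher, beside 7669 of 16275 genes. This scaling moves the median change of all genes in this comparison to 2.048 on the log2 scale.

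Relative to mono, most of these mRNAs were higher in poly in both genotypes. In WT, 6 of 10 were higher in poly than in mono (11% of all genes), namely HSP90AA1, HSP90AB1, HSP90B1, HSPA1A, HSPA5 and HSPD1, with log2 changes between 2.63 (HSPA1A) and 4.06 (HSPA5). In CBFB_KO, 8 of 10 were higher (8.2% of all genes), these and HSPA1B (1.81, adjusted p = 0.037) and HSPA8 (1.28, adjusted p = 0.031), whose call was kept in 10 of 17 alternatives and lost, among others, with a replicate block within genotype (adjusted p = 0.053). HSPE1 was not called in either genotype (log2 -0.77 in WT and -0.59 in CBFB_KO), nor was DNAJB1 (0.23 and 0.11). No member differed between the genotypes in its poly to mono ratio. The differences lay between -0.74 (HSPA5) and 0.34 (HSPA1B) on the log2 scale, with 95% intervals as wide as -2.60 to 1.66 (HSP90B1), adjusted p of 1.0 for all 10 and no member with an unadjusted p under 0.05. Among all genes 0% were called by edgeR or by DESeq2, with 164 and 174 genes at an unadjusted p under 0.05. Without either CBFB_KO replicate, or with its poly libraries counted as 1 sample, none of the 10 was called in CBFB_KO, and of all genes at most 1. Without WT replicate 2 none was called in WT, where edgeR called 0 of 17023 genes with 4525 at an unadjusted p under 0.05. The loss of these calls is therefore not particular to the members. Without only the poly library of WT replicate 2, the calls in WT were lost for all but HSP90AB1. Far fewer of all genes were called there too.

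The genotypes differed in the free fraction. Compared with WT free, CBFB_KO free held more HSP90B1, HSPA5, HSPD1 and HSP90AA1 mRNA (4 of 10, beside 24.2% of all genes called higher) and less DNAJB1 (1 of 10, beside 18.1% called lower). HSP90B1 was at 5.11 and 3.32 TMM-normalized CPM in WT free and at 66.3 and 104 in CBFB_KO free, which is 20.2-fold higher (log2 4.33, SE 0.78, adjusted p = 0.0022). The groups were far apart. Before any scaling, its expected counts were 358 and 258 in WT free and 1560 and 1026 in CBFB_KO free, higher in CBFB_KO although these libraries were the shallowest outside the mitochondrial genome. HSPA5 was at 5.19 and 6.74 CPM in WT free and at 40.1 and 58.6 in CBFB_KO free (8.26-fold, log2 3.05, SE 0.65, adjusted p = 0.0051). HSPD1 was at 17.6 and 14.2 against 105 and 152 (8.06-fold, log2 3.01, SE 0.51, adjusted p = 0.0015). HSP90AA1 was at 28.1 and 24.5 against 155 and 195 (6.66-fold, log2 2.74, SE 0.56, adjusted p = 0.0043). In each of the 4 genes both CBFB_KO libraries lay above both WT libraries. The 4 were picked by their calls in this same comparison, so this adds no support to the calls. The share of all genes set apart in this way was not counted.

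DNAJB1 was at 296 and 409 TMM-normalized CPM in WT free and at 138 and 23.8 in CBFB_KO free, a log2 change of -2.13 (SE 0.65, adjusted p = 0.025). The groups did not overlap, but the CBFB_KO libraries were far from each other, and the second held 235 counts against 3239 in the first. The call was lost without WT replicate 1, without WT replicate 2, without CBFB_KO replicate 2 and with the free libraries fitted alone. HSP90AB1 was at 112 and 123 CPM against 226 and 239, a log2 change of 0.98 (95% interval 0.07 to 1.90, adjusted p = 0.077), which did not pass in edgeR although the groups were apart. DESeq2 called it higher (1.03, adjusted p = 0.034). HSPA8 was at 287 and 265 against 217 and 205, HSPA1A at 8.22 and 16.2 against 16.4 and 5.87, HSPA1B at 7.05 and 22.6 against 12.8 and 7.69, and HSPE1 at 89.3 and 136 against 52.9 and 110. Their log2 changes were -0.39, -0.12, -0.52 and -0.47, with adjusted p of 0.38 to 0.88, and the groups overlapped for all but HSPA8.

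Other properties of the CBFB_KO free libraries moved with these differences. Their mitochondrial share was the highest of all libraries, as given above. Across all genes, the change from WT free to CBFB_KO free also moved with gene length, from a median log2 change of -1.08 for the 4114 genes with effective lengths under 1000 bases to -0.45 for 1000 to 2000 bases, 0.97 for 2000 to 4000 and 2.44 for longer genes. HSPA5 (mean effective length 3714 bases), HSP90AA1 (2760), HSP90B1 (2121) and HSPD1 (2091) fall in the bin with the median of 0.97 and were at 2.74 to 4.33. HSP90AB1 (2270), HSPA1B (2325) and HSPA1A (2002) fall in the same bin and were at 0.98, -0.52 and -0.12. DNAJB1 (1988) and HSPA8 (1741) fall in the bin with the median of -0.45. With an offset for gene length, HSPA5 was no longer called (log2 1.24, adjusted p = 0.089). HSP90AA1 moved from 2.74 to 1.60 (adjusted p = 0.04), and the calls of HSP90B1, HSPD1 and DNAJB1 were kept too. Of all 16275 genes, 2844 were called higher and 3383 lower with this offset. Under scaling by library totals alone the median of all genes moved to -1.566. The split of calls turned from 4 higher and 1 lower to 1 higher (HSP90B1) and 4 lower (DNAJB1, HSPA1B, HSPA8 and HSPE1). Of all 16275 genes, 1281 were then called higher and 6461 lower. The part of the mitochondrial share and of gene length in the result was not tested. In bulk libraries of a fraction, fewer cells and less RNA per cell cannot be told apart.

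**Figure D2:**
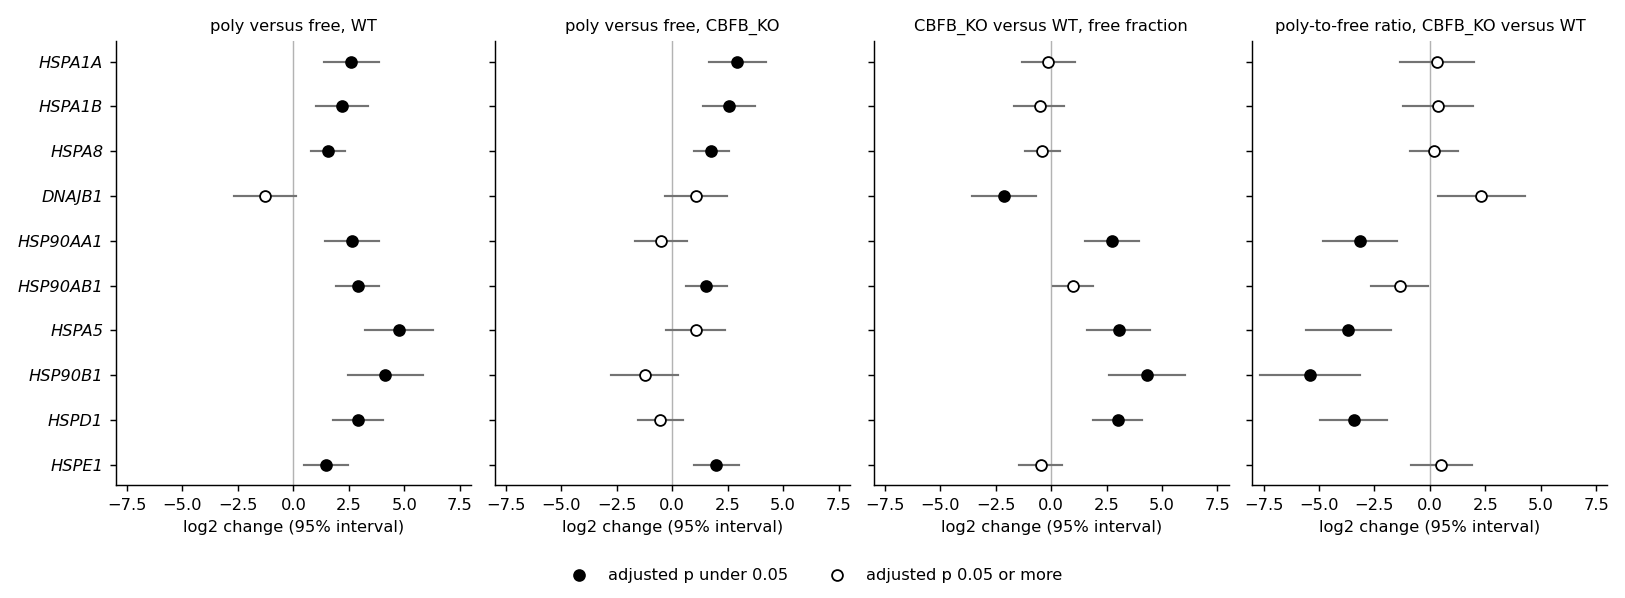
Log2 changes of the 10 chaperone mRNAs with 95% intervals from the edgeR fit, for poly versus free in WT and in CBFB_KO, for CBFB_KO versus WT in the free fraction, and for the difference between genotypes in the poly to free change. Filled points have an adjusted p under 0.05. HSP90AA1, HSPA5, HSP90B1 and HSPD1 are filled and on opposite sides of 0 in the third and the fourth panel, which share the free libraries.

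No member differed between the genotypes in mono or in poly. In mono the log2 changes of CBFB_KO against WT lay between -0.59 (HSP90B1) and 0.32 (DNAJB1), and in poly between -1.06 (HSP90B1) and 0.20 (HSPA1A and DNAJB1). All adjusted p were 1.0, and none of the 10 had an unadjusted p under 0.05 in either fraction, nor did DESeq2 call any. Of all genes 0.147% were called in mono and 0.19% in poly, with 712 and 451 at an unadjusted p under 0.05. The 95% intervals leave room for sizeable differences, for example -2.57 to 0.45 for HSP90B1 and -1.95 to 0.67 for HSPA5 in poly. These 2 estimates rested on WT poly replicate 2. Without that library HSP90B1 was at 0.62 and HSPA5 at 0.58.

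The poly to free ratio puts these comparisons together. For 4 of the 10 members the ratio was lower in CBFB_KO than in WT, beside 14.3% of all genes, and edgeR called none of the 10 higher. The median over the 10 was -0.58, against -0.10 over all genes. HSP90B1 fell by 5.39 on the log2 scale (SE 1.03, adjusted p = 0.0055), and the changes of HSPA5, HSPD1 and HSP90AA1 were -3.69 (SE 0.87, adjusted p = 0.016), -3.44 (SE 0.68, adjusted p = 0.0067) and -3.16 (SE 0.76, adjusted p = 0.017). They are the same 4 that were higher in CBFB_KO free, and both comparisons use the same free libraries. HSP90AB1 was at -1.37 (95% interval -2.66 to -0.07, adjusted p = 0.12) and DNAJB1 at 2.32 (0.35 to 4.30, adjusted p = 0.088). DESeq2 called DNAJB1 higher (2.39, adjusted p = 0.014), as did edgeR without the filter on low counts (2.33, adjusted p = 0.014). HSPA1A (0.32), HSPA1B (0.37), HSPA8 (0.20) and HSPE1 (0.51) had adjusted p of 0.58 to 0.80, with intervals that for HSPA8 ran from -0.88 to 1.28 and for HSPA1A from -1.35 to 1.99.

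Several of these calls were lost when libraries were left out, in fits that hold 1 library in some conditions. Without WT replicate 2 the call of HSP90B1 was kept (-3.34, adjusted p = 0.033) and the others were lost (-2.57 for HSPA5, -2.46 for HSPD1 and -1.86 for HSP90AA1, adjusted p of 0.058 to 0.11). Without only its poly library, HSP90B1 (-3.72) and HSPD1 (-2.70) were kept. Without CBFB_KO replicate 2, the free fraction of CBFB_KO holds 1 library that is assumed to vary like the other groups. The changes were then -5.05, -3.42, -3.19 and -2.99. They lay near those with all libraries, but no call was kept. Far fewer of all genes were called lower in that fit too, so this loss is not particular to the members. Without only the free library of CBFB_KO replicate 2, the calls were kept. With the CBFB_KO poly libraries counted as 1 sample, HSP90B1 alone passed (adjusted p = 0.039). HSP90B1 kept its call in 16 of 17 alternatives, HSPD1 in 13, and HSPA5 and HSP90AA1 in 11 each, and none of the 4 changed direction in any of the 17. Gene length moved with this ratio too, with a median log2 change of -1.05 over all genes of the bin of 2000 to 4000 bases that holds the 4. With an offset for gene length, HSPA5 (-1.73, adjusted p = 0.13) and HSP90AA1 (-1.92, adjusted p = 0.10) lost their calls. The split was 1 higher (DNAJB1) and 2 lower, beside 854 higher and 1435 lower of 16275 genes. Scaled by library totals alone, which moves the median of all genes to 1.537, the split was 2 higher (DNAJB1 and HSPE1) and 1 lower (HSP90B1). Of all 16275 genes, 3003 were then called higher and 646 lower.

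**Figure D3:**
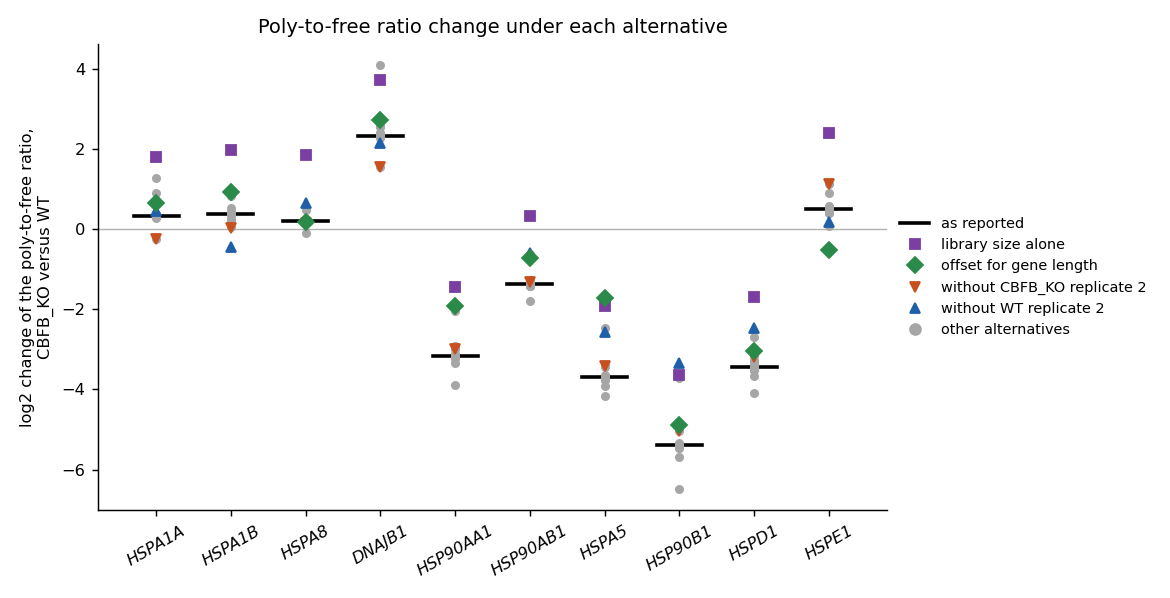
Log2 difference between CBFB_KO and WT in the poly to free ratio for each chaperone mRNA as reported (black line) and under each alternative. Squares, scaling by library totals alone, lie above the reported values throughout, and HSP90AB1 is on the other side of 0 there, while HSPA5, HSP90B1, HSPD1 and HSP90AA1 stay below 0 under all 17 alternatives.

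The same ratio was taken from the deposited FPKM. A gene was counted as decreased when the CBFB_KO value of its poly to free ratio, divided by the WT value, was below 0.5, among genes with a mean FPKM of 1 or more in every free and poly condition, a minimum set here. All 10 members passed it, as did 7126 genes in all. HSP90B1 (0.0823), HSPA5 (0.26), HSPD1 (0.279) and HSP90AA1 (0.281) were below 0.5, 4 of 10 beside 8.1% of all genes. When each CBFB_KO replicate was set against each WT replicate, 4 pairings in all, the ratio of HSP90B1 lay between 0.0441 and 0.324, below 0.5 in each. For HSPA5, HSPD1 and HSP90AA1 the highest pairing was 0.65, 0.582 and 0.695. The median over all 7126 genes was 4.42, since FPKM is divided by a total that includes the mitochondrial counts. HSPE1 (4.66), HSPA1B (3.92), HSPA1A (3.77) and HSPA8 (3.42) lay near that median, HSP90AB1 (1.37) below it and DNAJB1 (13, with pairings from 5.77 to 97.7) above it. After rescaling FPKM to genes outside the mitochondrial genome, HSP90AB1 fell below 0.5 too, and 27.5% of all genes with it. Without WT replicate 2, HSP90B1 was the only member below 0.5, and with a mean FPKM of at least 5, which 6 members passed, HSP90AA1 and HSPD1 were.

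A ratio of 2 mRNAs within 1 library cannot be moved by any scaling of libraries. Such ratios were chosen after the values had been seen and are given without a test, since 2 libraries against 2 cannot give an exact permutation p under 0.33. HSPD1 and HSPE1 work as barrel and lid, and their genes lie head to head on chromosome 2. The TPM ratio of HSPD1 to HSPE1 was 0.0457 and 0.0235 in WT free and 0.446 and 0.329 in CBFB_KO free. It was between 0.00727 and 0.00875 in all 4 mono libraries, and 0.0524, 0.141, 0.0683 and 0.0719 in the poly libraries of WT and CBFB_KO. Genotypes were apart in free, close together in mono and overlapping in poly. The ratio of HSP90AA1 to HSP90AB1 was 0.184 and 0.157 in WT free and 0.615 and 1.15 in CBFB_KO free, and between 0.111 and 0.223 in the 8 mono and poly libraries. HSP90B1 to HSP90AB1 was 0.033 and 0.037 in WT free and 0.353 and 0.445 in CBFB_KO free, against 0.0422 to 0.108 elsewhere. HSPA5 to HSPA8 was 0.00835 and 0.0114 in WT free, 0.0851 and 0.107 in CBFB_KO free, and 0.0506, 0.13, 0.07 and 0.0718 in poly. Other ratios were lower in CBFB_KO free. DNAJB1 to HSPA8 was 0.899 and 1.28 in WT free against 0.547 and 0.0824, and HSPA5 to HSP90B1 was 0.732 and 0.914 against 0.32 and 0.34. HSP90AA1, HSP90AB1 and HSP90B1 fall in the same length bin, whereas HSPD1 and HSPE1, and HSPA5 and HSPA8, do not. The effective length that RSEM gave HSP90AA1 was 1616 bases in CBFB_KO free replicate 2 and 2621 to 3143 in the other 11 libraries. A shorter effective length raises its TPM there. In that library HSPD1, HSPE1 and HSPA8 also had their lowest effective lengths, 1736, 413 and 1378 bases. HSP90B1 had 2674 and 1672 bases in WT free, so that the other ratios are moved by these lengths too.

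**Figure D4:**
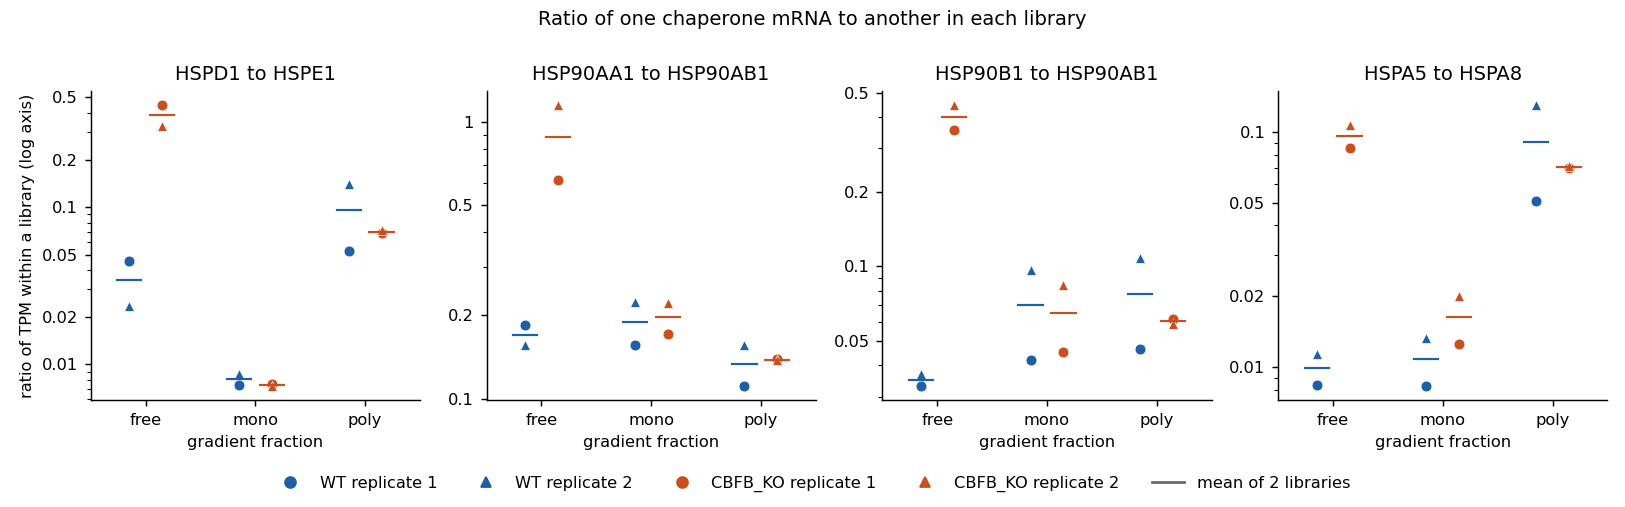
Ratio of the TPM of one chaperone mRNA to that of another in each library (log axis), with symbols as in the plot of CPM by fraction. In free, both CBFB_KO libraries lie above both WT libraries in all 4 panels, which were picked from 7 ratios computed, whereas in mono and poly the ranges of the genotypes overlap.

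Levels of different genes were compared per length, as TPM rescaled to the genes outside the mitochondrial genome. In WT poly HSPE1 was the highest at 915 ± 9.71 (SD, n = 2), followed by HSPA8 at 698 ± 230 and HSP90AB1 at 589 ± 378. None of the 3 means differed from its neighbour by more than the larger SD. Both libraries held this order, with 921, 536 and 322 in replicate 1 and 908, 861 and 856 in replicate 2. DNAJB1 (112 ± 5.0), HSPD1 (88.0 ± 56.1), HSP90AA1 (84.6 ± 69.1), HSPA5 (69.7 ± 60.2), HSPA1A (54.6 ± 28.8), HSP90B1 (53.9 ± 55.1) and HSPA1B (45.2 ± 10.2) formed a lower group, in which neighbours in the order did not differ beyond their spread. In CBFB_KO poly the order at the top was the same, with HSPE1 at 830 ± 8.52, HSPA8 at 551 ± 1.78, HSP90AB1 at 399 ± 2.98 and DNAJB1 at 116 ± 0.478. In WT free HSPE1 (270 ± 131), DNAJB1 (202 ± 75.3) and HSPA8 (183 ± 23.6) led, and HSP90B1 (2.19 ± 0.419) and HSPA5 (1.83 ± 0.627) were the lowest of the 10. In CBFB_KO free HSPA1A (9.89 ± 7.17) and HSPA1B (8.04 ± 4.08) were the lowest, and HSPA5 was at 22.8 ± 2.25, HSP90B1 at 69.1 ± 3.83, HSPD1 at 117 ± 23.7 and HSP90AA1 at 151 ± 49.3. Together the 10 mRNAs took 0.339% and 0.655% of the counts outside the mitochondrial genome in WT poly, 0.417% and 0.415% in CBFB_KO poly, and between 0.099% and 0.207% in the other 8 libraries.

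HSPA5, HSP90B1, HSPD1 and HSP90AA1 moved together, and the 250 bases before each RefSeq start site (GRCh38.p14) were searched for motifs of chaperone promoters on both strands. The 10 members matched 16 promoter windows. The ER stress element, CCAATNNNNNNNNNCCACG, known as the site of ATF6 and NF-Y, was found in HSPA5 and HSP90B1 and in no other member, and in 0.074% of 35116 promoters. The heat shock element with 3 alternating units, GAANNTTCNNGAA or TTCNNGAANNTTC (each the other strand of the other), was found in HSP90AA1, HSP90AB1, HSPA8 and HSPD1, and in 0.441% of promoters. The matches are printed as stretches of 29 bases on the strand of the gene to show what the members share. Capitals mark the match, in HSPD1 a pair of overlapping matches.
HSPA5, chr9:125241386-125241414, minus strand: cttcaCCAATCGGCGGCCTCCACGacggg
HSP90B1, chr12:103930211-103930239, plus strand: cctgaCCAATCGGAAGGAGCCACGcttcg
HSP90B1, chr12:103930316-103930344, plus strand: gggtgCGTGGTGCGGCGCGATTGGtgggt
HSP90AA1, chr14:102087112-102087140, minus strand: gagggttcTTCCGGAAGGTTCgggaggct
HSPD1, chr2:197500062-197500090, minus strand: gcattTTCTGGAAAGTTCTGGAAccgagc
HSP90AB1, chr6:44247770-44247798, plus strand: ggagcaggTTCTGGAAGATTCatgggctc
HSP90AB1, chr6:44247823-44247851, plus strand: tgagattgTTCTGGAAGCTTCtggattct
HSPA8, chr11:123062171-123062199, minus strand: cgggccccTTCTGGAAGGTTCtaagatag
HSPA8, chr11:123062346-123062374, minus strand: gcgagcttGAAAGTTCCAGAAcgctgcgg
The second match of HSP90B1 is the element on the other strand. In GENCODE release 29 the HSPA5 stretch lies outside any transcript and the HSP90AB1 stretches in an intron of longer HSP90AB1 transcripts. The stretches of HSP90B1, HSP90AA1, HSPA8 and HSPD1 overlap an untranslated exon of a transcript of the same gene with another start, and that of HSPD1 also one of HSPE1. The HSPD1 match belongs to its start site at 197499840. Its other start site, at 197500274, lies 105 bases from that of HSPE1. Members with the heat shock element were found among those called in CBFB_KO free (HSP90AA1 and HSPD1) and those not called (HSP90AB1 and HSPA8). HSPA1A, HSPA1B and DNAJB1, named above as classical targets of HSF1, had no match, nor had HSPE1. The search allowed no mismatch in the fixed bases, so a member without a match may still hold a heat shock element. A match in this window is a description and not evidence of binding.

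The wider chaperone machinery was counted in lists of 80 other genes, of which 79 were tested. In WT, 40 of the 79 were higher in poly than in free and 2 lower (median log2 change 1.55). Among all 16275 genes, 14% were higher and 1301 genes were lower. In CBFB_KO free against WT free, 29 were higher and 11 lower (median 0.30), where 24.2% of all genes were higher and 18.1% lower. In the poly to free ratio 4 were higher and 24 lower (median -0.30), where 668 of 16275 genes were higher and 14.3% lower. In mono and in poly the medians of the 4 lists between genotypes lay between -0.27 and 0.06. Of the 28 cytosolic co-chaperones and Hsp70 or Hsp90 partners tested, 9 were higher and 2 lower in CBFB_KO free. The most abundant were HSPB1, a small heat shock protein (log2 -0.46, adjusted p = 0.41), and STUB1, a ubiquitin ligase that works with Hsp70 (-1.81, adjusted p = 0.042). Of 22 endoplasmic reticulum genes, 10 were higher and 5 lower. PPIB, a prolyl isomerase, was at -0.03 (adjusted p = 0.96), and CALR, a chaperone of glycoproteins, at 2.53 (adjusted p = 0.0011), with a change of its poly to free ratio of -2.88 (adjusted p = 0.0059).

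Of 15 mitochondrial chaperones and proteases, 4 were higher and 2 lower in CBFB_KO free, near the shares of 24.2% and 18.1% among all genes. The prohibitins were the most abundant, with PHB2 at -2.0 (adjusted p = 0.028) and PHB at -0.48 (adjusted p = 0.40). Of 14 genes of the cytosolic chaperonin and of prefoldin, which hands new proteins to it, 6 were higher and 2 lower, and the lower were the most abundant, PFDN5 (-1.02, adjusted p = 0.043) and PFDN2 (-1.27, adjusted p = 0.020).

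Across the 12 libraries, the pattern of a member was compared with that of all genes tested by Pearson's r of log2 CPM, as a description, over libraries whose mitochondrial share also differed by condition. HSPD1 was most like HSP90AA1 (0.992) and HSP90B1 (0.990), members from other compartments. HSPA5 was most like PDIA3 (0.995), a thiol oxidoreductase of the endoplasmic reticulum, XRCC5 (0.993) and APP (0.991). HSPA1A was most like CDC6 (0.973), SRRT (0.972) and ELAC2 (0.971). Among the members, HSPD1 and HSPE1 had an r of -0.29, HSP90AA1 and HSP90AB1 0.86, HSPA5 and HSP90B1 0.91, and HSPA1A and HSPA1B 0.93.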

How the data were processed

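Per the labels, RNA of gradient fractions was made into libraries with a TruSeq mRNA kit. The submitters' processing notes name Trimmomatic, STAR, RSEM and the hg19 build, and versions are not given in the sources used here. For each library the authors deposited a table of RSEM's expected counts, which are estimated and not normalized. The authors' TPM column has a fixed sum in every library, and their FPKM column is divided by gene length and library total. Effective lengths come from the same tables. Handwritten notes in 2 tables were not used.

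Rounded expected counts went into the quasi-likelihood model of edgeR 4.0.16 under R 4.3.3 with limma 3.58.1, using TMM scaling, filterByExpr on the 6 conditions, 1 mean per condition over all 12 libraries and Benjamini-Hochberg adjustment over all 16275 genes at 0.05. A standard error is the log2 change over the square root of F. The ratio contrasts are interaction terms. DESeq2 1.42.0 was an alternative. Scaling choices, the low count filter, left-out replicates, replicate blocks, a length offset and the sum of HSPA1A with HSPA1B were also tried. Scripts were tested on simulated data. The FPKM ratio used the study's threshold of 0.5 for a decreased ratio, without a test. The use of FPKM, its minimum of 1 and the comparison of condition means were choices made here. Ratios, counts and figures were made in Python 3.11.15 (pandas 2.3.3, numpy 2.4.6, matplotlib 3.10.9).

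Gene names came from a table of identifiers (49995 matched) and GENCODE release 29. PHB was matched by its older name and the endothelial marker PECAM1 was not matched. Coordinates refer to GRCh38, not to hg19. A count of 0 allows up to 3 counts, or 4.7e-06 to 7.3e-06 percent of a library, for counting error only. Replicate numbers come from the labels, which do not say that they mark separate cultures, so that p-values measure the spread between these libraries, which may be technical. The members and the lists were chosen with earlier results of these data known. The text names all 10 members, the 2 genes of each list with the highest mean TPM, CBFB, and the 3 genes most like each of HSPA1A, HSPA5 and HSPD1, of which 1 is not reported here.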

Additional observations from a re-analysis of the deposited data

Results flagged for a closer look

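Among the members, 4 had a change from free to poly that differed between the genotypes by the test of the interaction itself. The difference, CBFB_KO against WT on the log2 scale, was -5.39 for HSP90B1, -3.69 for HSPA5, -3.44 for HSPD1 and -3.16 for HSP90AA1, with adjusted p from edgeR of 0.0055, 0.016, 0.0067 and 0.017. In WT these mRNAs were higher in poly than in free in both libraries, by 4.15, 4.75, 2.91 and 2.65. In CBFB_KO the corresponding changes were -1.24, 1.07, -0.53 and -0.51, none of them called. The groups held 2 libraries each, too few to look for a library that stands apart within a group.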

How the results depend on the processing

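No member called in the report changed direction under the 17 alternatives. Of 1036 values of single members, 891 kept direction and side of the threshold, 94 lost a call, 25 gained one and 26 changed sign, and none of these 26 was called in the report. The causes were not tested, except that fits with a replicate left out hold 1 library in some conditions. In those fits the number of all genes called moved too. Leaving out 1 replicate at a time gave 3 to 9 members called for poly versus free in WT and 1 to 5 in CBFB_KO, 0 to 6 for poly versus mono in WT and 0 to 8 in CBFB_KO, 0 to 5 for the poly to free ratio, and 1 to 4 below 0.5 in the FPKM ratio. Omitting only the poly library of WT replicate 2, like omitting only the free library of CBFB_KO replicate 2, was chosen after seeing the data. Without that poly library fewer members were called for poly versus free and poly versus mono in WT and for the poly to free ratio. Fewer of all genes were called in these comparisons too. Without only that free library, more of all genes were called for poly versus free and poly versus mono in WT. The members called there were 10, with 9 higher and DNAJB1 lower (log2 -1.24), for poly versus free, and 8 for poly versus mono. With the CBFB_KO poly libraries as 1 sample they were 0 for poly versus mono in CBFB_KO and 1 for the poly to free ratio. A mean FPKM of at least 5 left 2 members below 0.5.

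With library totals alone, 9 members were called for poly versus free in CBFB_KO, beside 7669 of 16275 genes called higher. In that comparison HSP90AA1, HSP90B1 and HSPD1 moved to 1.78, 1.1 and 1.79. HSPE1 moved to 0.12 (WT) and 0.39 (CBFB_KO) for poly versus mono, and HSP90AB1 to -0.72 in free and 0.32 in the poly to free ratio. With the length offset, HSP90AA1 was at 0.03 for poly versus free in CBFB_KO, DNAJB1 at -0.01 (WT) and -0.1 (CBFB_KO) and HSPE1 at 0.55 and 0.71 for poly versus mono, and HSPE1 at 0.43 in free and -0.53 in the ratio. With replicates left out in turn, HSPA1A ran from -1.06 to 0.44 and HSPA1B from -1.13 to 0.47 in free. In the poly to free ratio HSPA1A ran from -0.25 to 1.27, HSPA1B from -0.44 to 0.84 and HSPA8 from -0.09 to 0.64. In poly HSPA5 ran from -1.3 to 0.61 and HSP90B1 from -1.82 to 0.65. Without only the free library of CBFB_KO replicate 2, HSPA1A was at 0.43 in free and -0.24 in the ratio, and without only the poly library of WT replicate 2, HSPA5 and HSP90B1 were at 0.58 and 0.62 in poly.

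Genotypes and fractions share the replicate numbers 1 and 2, and the labels give them no further meaning. A replicate block left every count of called members as reported, at 9, 5, 6, 8, 5, 0, 0, 4 and 0 over the 9 comparisons. A replicate block within genotype gave 7 for poly versus mono in CBFB_KO, without HSPA8. The first block put the poly to free ratio of HSP90B1, HSPA5, HSPD1 and HSP90AA1 at -4.96, -3.43, -3.29 and -2.97. The replicate differences correlated across genes by 0.06, 0.51 and 0.08 between genotypes in free, mono and poly.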
